A study of Mus musculus with 12 samples.

Results

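The genes described here are 10 of the 55357 gene identifiers listed in each of the count tables, namely Orm1, Orm2, Orm3, Saa1, Saa2, Saa3, Hp, Hpx, Lcn2 and Itih4. They were chosen by name as acute phase genes after Orm3 had been seen to be higher in the esculetin livers. Their liver values are therefore given as a description. Calls of members in the liver are listed, but nothing is read from them. All 10 passed the filter on low counts in the liver and 1, Saa3, passed it in the cells.

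Acute phase proteins are plasma proteins whose synthesis changes when tissue is injured or infected. Hepatocytes make most of them under the control of interleukin 6, interleukin 1 and glucocorticoids, which act through the transcription factors STAT3, C/EBP and NF-kB, and macrophages make a few of them, serum amyloid A3 and lipocalin 2 among them. Orosomucoids bind small lipophilic molecules, serum amyloid A proteins travel on high-density lipoprotein, haptoglobin and hemopexin carry free hemoglobin and heme, and lipocalin 2 sequesters the iron-binding siderophores of bacteria.

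RNA-seq was performed on 12 libraries in 4 groups of 3. The liver libraries came from wild-type male C57BL6/J mice aged 8 to 9 weeks, which received by daily gavage for 7 days either esculetin, a plant coumarin, at 90 mg/kg/d or 2.5% Tween-80 as its vehicle. All of these mice ate a control diet (10% kcal from fat) during the first 4 days and a high-fat diet (60% kcal) during the last 3 days, and per the study each liver sample held a pair of mice. The cell libraries came from wild-type RAW264.7, a mouse macrophage line, held with 25 µg/mL of the DIL-oxLDL particle, oxidized low-density lipoprotein carrying a dye, for 24 h together with DMSO or 40 µg/mL esculetin. No liver group without the high-fat diet and no cell group without oxLDL was analysed here. The labels did not say whether the cell libraries came from separate cultures, so the p-values in the cells measure the spread between these libraries.

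A liver library held 14659876 to 20346460 counts and a cell library 13752842 to 20001959. Values are CPM, counts relative to library size, scaled to the counts of the tested genes by the trimmed mean of M-values. At this depth 3 counts corresponded to 0.148 to 0.195 CPM in the liver and to 0.146 to 0.220 CPM in the cells. The 6 hepatocyte markers, albumin among them, summed to between 99274 and 129124 CPM in the livers and to at most 0.0973 CPM in the cells, where 5 of the 6 were at 0 in every library. The macrophage markers Csf1r, Cd68 and Adgre1 were detected in all cell libraries, whereas the Kupffer cell markers Clec4f, Vsig4 and Timd4 had at most 2 counts in any of them.

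The liver comparison asks which hepatic genes differ after oral esculetin in mice on a high-fat diet. In the control livers the members spanned more than 4 orders of magnitude. To compare genes, CPM was divided by the summed length of all annotated exons of a gene. Hpx, which encodes hemopexin, was the highest at 3662 ± 712 CPM per kb (SD, n = 3), followed by Hp, which encodes haptoglobin, at 2218 ± 250.0 and by Orm1 at 391 ± 54.6. Itih4, a heavy chain relative of the inter-alpha-trypsin inhibitors, stood at 286 ± 39.4 CPM per kb. None of these 4 overlapped its neighbour in the order over the 3 control libraries.

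A second tier lay far lower. On the same per-length scale the control mean was 10.8 ± 4.66 for Saa1, 6.80 ± 1.14 for Orm2 and 6.79 ± 3.69 for Saa2, and the library ranges of Saa1 and Orm2 and of Orm2 and Saa2 overlapped. Lcn2 followed at 2.12 ± 0.951, Saa3 at 1.16 ± 0.109 and Orm3 was last at 0.324 ± 0.104 CPM per kb. In the esculetin livers the order of the first 8 genes was the same, but Orm3, at 1.78 ± 0.361, stood above Saa3, at 1.16 ± 0.344, with overlapping ranges. The 10 genes together took 1.03%, 1.13% and 1.18% of the counts in the control livers and 1.23%, 1.07% and 1.25% in the esculetin livers, ranges that overlapped.

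**Figure D1:**
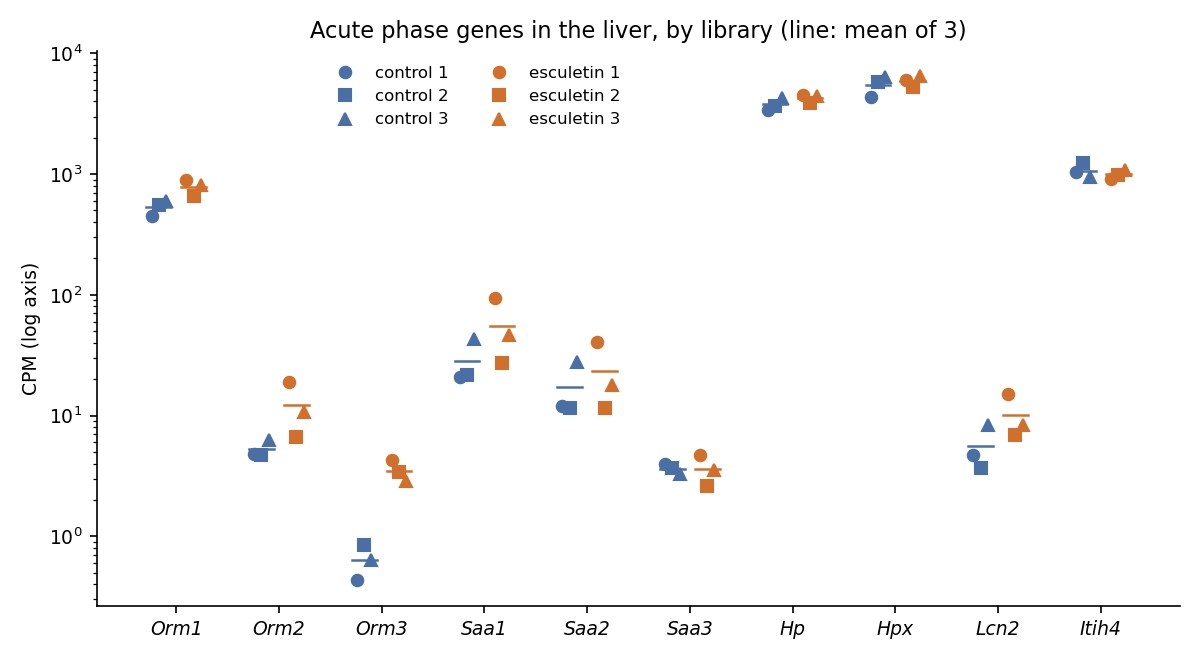
Level of each of the 10 genes in the 6 liver libraries, as CPM on a log axis, with control libraries in blue, esculetin libraries in orange, the replicate number as the symbol and the mean of 3 libraries as a line. The control and esculetin libraries of Orm1, Orm2 and Orm3 do not overlap, and esculetin replicate 1 (orange circle) is the highest library for 8 of the 10 genes.

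The 3 orosomucoid genes, which encode alpha-1-acid glycoproteins, lie side by side on the plus strand of chromosome 4 (GRCm39), Orm1 at chr4:63261052-63272189, Orm3 at chr4:63274208-63277748 and Orm2 at chr4:63280686-63284115. They are the members whose liver libraries did not overlap between the groups, so the 300 bases before the start of their main transcripts are shown, together with those of Saa1 and Saa3, read 5′ to 3′ on the strand of the gene from the GRCm39 genome. The windows are chr4:63262452-63262751 on the plus strand for Orm1, chr4:63280386-63280685 plus for Orm2, chr4:63274064-63274363 plus for Orm3, chr7:46392548-46392847 minus for Saa1 and chr7:46365577-46365876 minus for Saa3. Longer transcripts are annotated for Orm1 and Orm3, so that their windows lie within or partly within the gene. Capitals mark matches to the C/EBP motif TTNNGNAA on either strand.
Orm1: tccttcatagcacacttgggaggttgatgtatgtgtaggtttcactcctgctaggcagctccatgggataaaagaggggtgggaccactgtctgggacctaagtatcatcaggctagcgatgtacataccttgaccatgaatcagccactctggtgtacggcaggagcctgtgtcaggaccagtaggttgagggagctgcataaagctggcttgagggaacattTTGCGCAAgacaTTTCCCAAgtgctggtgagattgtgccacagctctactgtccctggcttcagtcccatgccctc
Orm2: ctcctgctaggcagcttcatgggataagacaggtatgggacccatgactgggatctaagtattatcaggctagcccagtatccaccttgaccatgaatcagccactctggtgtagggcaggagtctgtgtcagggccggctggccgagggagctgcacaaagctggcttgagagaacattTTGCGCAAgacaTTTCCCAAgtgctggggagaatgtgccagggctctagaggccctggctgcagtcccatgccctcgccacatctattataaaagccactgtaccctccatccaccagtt
Orm3: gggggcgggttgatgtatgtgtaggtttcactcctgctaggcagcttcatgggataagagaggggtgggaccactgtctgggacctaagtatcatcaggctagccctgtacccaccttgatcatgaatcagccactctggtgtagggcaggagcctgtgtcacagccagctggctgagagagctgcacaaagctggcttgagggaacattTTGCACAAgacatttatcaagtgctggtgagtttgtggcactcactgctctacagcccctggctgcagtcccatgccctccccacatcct
Saa1: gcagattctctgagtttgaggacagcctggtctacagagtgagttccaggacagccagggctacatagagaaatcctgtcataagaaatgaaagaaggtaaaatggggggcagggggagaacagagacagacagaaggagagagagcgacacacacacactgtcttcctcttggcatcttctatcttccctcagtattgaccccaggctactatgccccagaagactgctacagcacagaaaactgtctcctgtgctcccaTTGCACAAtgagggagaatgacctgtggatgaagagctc
Saa3: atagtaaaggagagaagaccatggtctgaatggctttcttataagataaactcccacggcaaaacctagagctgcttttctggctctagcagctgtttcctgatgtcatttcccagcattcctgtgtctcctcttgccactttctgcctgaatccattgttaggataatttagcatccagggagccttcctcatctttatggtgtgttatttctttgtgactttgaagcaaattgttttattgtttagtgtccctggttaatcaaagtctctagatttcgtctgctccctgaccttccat

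The Orm1 and Orm2 windows each held the match TTGCGCAA followed by TTTCCCAA, at 76 and 64 bases before the start in Orm1 and at 120 and 108 bases in Orm2. Orm3 held 1 match, TTGCACAA, 90 bases before its start. The same letters, TTGCACAA, were the match of Saa1 at 39 bases and of Saa2 at 140 bases, and the Saa3 window held none. Distances were counted from the annotated start and depend on it. The bases around the matches were alike in Orm1 and Orm2, and also in Saa1 and Saa2. The windows of the orosomucoid genes were 86.67% to 88.28% identical to each other in an alignment.

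Across the 10 members, 7 windows held the C/EBP motif, against 43.24% of 21757 promoter windows of the same length. The acute phase response element CTGGGA was found in 7, against 32.64% of all windows, and the STAT motif TTCNNNGAA in 1 (Itih4), against 9.197%. The glucocorticoid receptor motif ACANNNTGT was found in 2 (Saa1 and Lcn2), against 6.527%, and the NF-kB consensus in 1 (Lcn2), against 4.991%. All motifs were searched on both strands, and the NF-kB match of Lcn2 overlapped its match to CTGGGA. The windows of the orosomucoid genes are alike, as are those of Saa1 and Saa2 (75.12% identical), so the members are not independent in these counts. A match of letters is a description and not evidence of binding.

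Orm1, the most abundant of the family, was at 453, 554 and 599 CPM in the control livers and at 886, 659 and 817 in the esculetin livers. Every esculetin library lay above every control library, by a small margin between control replicate 3 and esculetin replicate 2. The means were 535 ± 74.8 and 787 ± 116 CPM (SD, n = 3), a ratio of 1.47, and the fitted log2 ratio was 0.56 (SE 0.15).

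Orm2 was at 4.79, 4.74 and 6.29 CPM in the controls and at 19.0, 6.62 and 10.7 with esculetin. The groups again did not overlap, but esculetin replicate 2 lay next to the highest control and esculetin replicate 1 far above the rest. The means were 5.27 ± 0.883 and 12.1 ± 6.31 CPM, with a log2 fold change of 1.21 (SE 0.32).

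Orm3 was at 0.430, 0.839 and 0.641 CPM in the controls, from 7, 17 and 11 counts. With esculetin it was at 4.25, 3.38 and 2.85 CPM, from 78, 52 and 44 counts. The lowest esculetin library lay more than 3 times above the highest control. Orm3 led to the choice of these genes, so this gap is a description only. The means were 0.637 ± 0.204 and 3.49 ± 0.709 CPM, a ratio of 5.48, with a log2 fold change of 2.43 (SE 0.34).

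Within the family the ratio of Orm3 to Orm1 was higher in the esculetin livers. The counts of Orm3 were 0.0950%, 0.151% and 0.107% of those of Orm1 in the control livers and 0.480%, 0.512% and 0.349% in the esculetin livers, without overlap. Since the rise of Orm3 led to the choice of these genes, this ratio restates it and is a description only. The transcripts of the family are alike, with 90.97% identity between Orm1 and Orm2, 88.02% between Orm2 and Orm3 and 85.45% between Orm1 and Orm3. The longest stretch shared without a mismatch was 141 bases for Orm1 and Orm2, 75 for Orm2 and Orm3 and 65 for Orm1 and Orm3, and no window of 150 bases, the length of a read, was shared by any pair. How the counting treated reads with several places in the genome was not stated, so the division of reads within this family is uncertain.

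Serum amyloid A genes lie in a cluster on chromosome 7, Saa3 at chr7:46361422-46365576, Saa1 at chr7:46389916-46392547 and Saa2 at chr7:46401214-46403737. Saa1, one of the major circulating forms, was at 21.0, 21.9 and 42.7 CPM in the control livers and at 93.4, 27.1 and 46.5 with esculetin. Only esculetin replicate 1 stood clearly apart, since replicate 2 lay below control replicate 3 and replicate 3 just above it. The log2 fold change was 0.97 (SE 0.38).

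Saa2, the other major circulating form and 93.89% identical to Saa1 in its transcript, was at 12.0, 11.5 and 27.9 CPM in the controls and at 40.7, 11.5 and 18.1 with esculetin. The groups overlapped throughout, apart from esculetin replicate 1 (log2 fold change 0.46, SE 0.42). The ranking of libraries within each group was nearly the same for Saa1 and Saa2, with control replicate 3 the highest control and esculetin replicate 1 the highest of all, and how reads were divided between these 2 paralogs is uncertain.

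Saa3, the form made by macrophages and other cells outside the liver, was at 3.93, 3.70 and 3.26 CPM in the control livers and at 4.74, 2.60 and 3.56 with esculetin. The esculetin libraries lay on both sides of the controls and the means were equal at 3.63 CPM (log2 fold change 0.01, SE 0.26). Its transcript was 61.99% identical to that of Saa1.

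Haptoglobin and hemopexin differed little between the groups relative to their spread. Hp (chr8:110301759-110305804) was at 3411, 3672 and 4243 CPM in the controls and at 4488, 3858 and 4412 with esculetin, a log2 fold change of 0.17 (SE 0.14). Hpx (chr7:105240817-105249344) was at 4313, 5827 and 6382 CPM in the controls and at 6039, 5315 and 6502 with esculetin, a log2 fold change of 0.11 (SE 0.17). Both genes had overlapping groups, and in both control replicate 1 was the lowest library.

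Lcn2 (chr2:32274645-32278264) was at 4.67, 3.65 and 8.39 CPM in the control livers and at 15.1, 6.88 and 8.41 with esculetin. Its libraries followed the pattern of Saa1, with control replicate 3 the highest control and esculetin replicate 1 the highest library, and the groups overlapped (log2 fold change 0.87, SE 0.33). Itih4 (chr14:30608378-30624310) was at 1039, 1232 and 942 CPM in the controls and at 917, 992 and 1089 with esculetin. It was the only member with a negative log2 fold change, -0.10 (SE 0.14), and its groups overlapped.

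Of the 10 members, 9 had a log2 fold change above 0 in the liver, with a median of 0.51, whereas over all 12813 tested genes 46.5% were above 0 and the median was -0.02. The value of Saa3, next to 0, turned to -0.06 with scaling by library size only. Without overlap and higher with esculetin were 3 of the 10, the orosomucoid genes, against 6.52% of all tested genes. The edgeR test called 1 of the 10, Orm3, at an adjusted p-value under 0.05, against 0.0859% of all tested genes. Since Orm3 was seen in this contrast before the genes were chosen, nothing is read from these counts.

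Esculetin replicate 1 was the highest of the 6 livers for 8 of the 10 members, all but Hpx and Itih4. Without this library the log2 fold change was 0.45 for Orm1, 0.71 for Orm2 and 2.25 for Orm3. It was 0.36 for Saa1 and 0.45 for Lcn2, and it turned to -0.22 for Saa2 and -0.25 for Saa3. The number of members above 0 went from 9 to 7 and the median from 0.51 to 0.24, and no member was called. Nor was a member called without control replicate 2, without esculetin replicate 2 or without esculetin replicate 3. Over all tested genes, 0 were called without esculetin replicate 1, control replicate 2 or esculetin replicate 3. Without esculetin replicate 2, 15 genes (0.113%) were called. Without control replicate 1, the lowest library for Orm1, Orm3, Saa1, Hp and Hpx, 8 members were above 0, the median was 0.36 and Orm3 was at 2.23. Other libraries moved the values the opposite way. Without control replicate 3, the highest control for Saa1, Saa2 and Lcn2, the median was 0.81, Saa1 was at 1.36, Saa2 at 0.98, Lcn2 at 1.28 and Saa3 at -0.08, and without esculetin replicate 2 the median was 0.72.

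**Figure D2:**
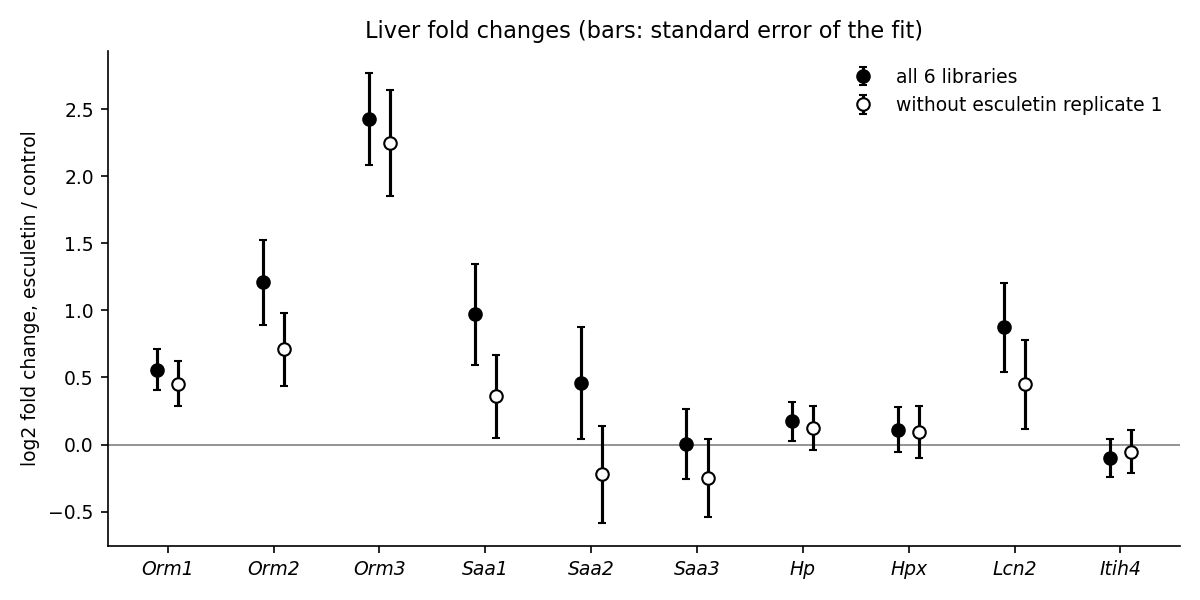
Log2 fold change of each member in the liver, esculetin over control, with bars for the standard error of the edgeR fit, from all 6 libraries (filled) and without esculetin replicate 1 (open). Saa2 and Saa3 fall below 0 without that library, and Orm3 has the largest value of the 10 in both.

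Markers of other cells were set beside these values. The summed neutrophil markers were at 3.16 to 3.81 CPM in the control livers and at 2.72 to 3.04 in the esculetin livers, without overlap. Ly6g and Mpo were at 0 in all 6, and 1 of the 10 genes of that list was tested. Of 8 macrophage and Kupffer cell markers, 6 had a log2 fold change below 0, where 46.5% of all tested genes were above 0. For 3 of the 8 every esculetin library lay below every control, and the share of all genes doing so was not counted. EdgeR called 0 of the 8, with 2 at an unadjusted p-value under 0.05, against 11 and 1072 of all 12813 tested genes. The sum of the 8 was at 413 to 504 CPM in the controls and at 398 to 445 with esculetin, ranges that overlapped. The adipocyte markers Adipoq and Plin1 were at 1.36 and 0.763 CPM in esculetin replicate 1 and at 3.75 and 2.65 CPM in replicate 3, but at most 0.345 CPM in the other 4 livers. The sum of the 4 adipocyte markers, of which Cidec was the only one tested and Lep had at most 3 counts, was at 7.45 to 13.5 CPM in the controls and at 5.13 to 17.6 with esculetin. Of the pancreas markers Prss2, Cela1 and Cpa1, the defining Prss2 and Cpa1 had at most 2 counts in any liver. Cela1, the only one tested, made up nearly all of their sum, which was at 16.3, 17.9 and 25.1 CPM in the controls and at 25.5, 26.2 and 30.8 with esculetin, without overlap (log2 fold change 0.48, edgeR adjusted p-value 0.480). The summed B and T cell markers were at 3.38 to 4.30 CPM in the controls and at 2.72 to 3.62 with esculetin, and those of endothelial and stellate cells at 274 to 284 and at 260.2 to 279, ranges that overlapped. The part of these cells in the liver values was not tested, and in bulk tissue fewer cells of a type cannot be told apart from less RNA per cell.

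Among 30 other positive acute phase genes, 27 were tested in the liver, of which 18 were above 0 with a median log2 fold change of 0.16. The edgeR test called 0 of them, with 7 at an unadjusted p-value under 0.05, limma-voom called 0 and DESeq2 called 2, Saa4 and Serpina3k. Over all 12813 tested liver genes, 1072 were at an unadjusted edgeR p-value under 0.05. EdgeR and limma-voom each called 11 (0.0859%) and DESeq2 98 (0.765%). The same background holds for the liver lists that follow. Serpina3k, a hepatic serine protease inhibitor, was at 9737, 17659 and 20011 CPM in the controls and at 31793, 22054 and 31206 with esculetin (log2 fold change 0.84). Saa4, the constitutive serum amyloid A that lies between Saa3 and Saa1, was at 223, 235 and 258 CPM in the controls and at 475, 261 and 403 with esculetin (0.67). For both genes the groups did not overlap, and esculetin replicate 1 was the highest library and esculetin replicate 2 the lowest of its group, as for Orm1 and Orm2. Serpina1e, an alpha-1-antitrypsin copy, was at 0.50 and Il1rn, the interleukin 1 receptor antagonist, at -0.85.

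The 12 negative acute phase genes, plasma proteins that usually fall in the response, had a median of 0.03 in the liver. None was called by edgeR or limma-voom, 1 was at an unadjusted p-value under 0.05 and DESeq2 called Serpina6, the gene of corticosteroid-binding globulin. Serpina6 was at 327, 267 and 247 CPM in the controls and at 170.2, 202 and 170.3 with esculetin, without overlap (log2 fold change -0.63). Ttr was at -0.23, Apom at 0.19 and Alb at -0.16. The negative genes showed no common direction, with 7 of 12 above 0 and 2 of 12 above 0 without control replicate 1.

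The cytokines that drive the response were scarce in the liver. Il6, Osm, Lif and Il11 had at most 2 counts in any liver library and Tnf at most 4, and Il1b, at 5.07 to 6.81 CPM in the controls and 4.66 to 5.71 with esculetin, was the most abundant. Of 15 cytokine and receptor genes 9 were tested, 2 of them above 0, with a median of -0.13. EdgeR, DESeq2 and limma-voom called 0, with 1 gene at an unadjusted p-value under 0.05 in each. Lifr, the receptor of leukemia inhibitory factor, was at 0.59, Osmr at -0.31, the interleukin 6 receptor Il6ra at -0.29 and Il1a at -0.21.

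All 17 transcription and signalling genes were tested in the liver, with a median of -0.0045, 2 at an unadjusted p-value under 0.05 and 0 called by edgeR or limma-voom. Cebpb, a C/EBP factor of the acute phase, was at 47.8, 74.3 and 70.0 CPM in the controls and at 97.5, 96.9 and 120.5 with esculetin, a log2 fold change of 0.71, and was the gene called by DESeq2. Its relative Cebpd was at 7.62, 8.19 and 13.5 CPM in the controls and at 15.6, 14.2 and 17.3 with esculetin (0.69). Both were without overlap between the groups. Socs3, a feedback inhibitor induced by STAT3, was at -0.58 and Nfkbiz, an NF-kB cofactor, at -0.81, both with control replicate 1 as the highest library.

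Of 7 glucocorticoid response genes 6 were tested in the liver, with 5 above 0, a median of 0.08 and 2 at an unadjusted p-value under 0.05. EdgeR, DESeq2 and limma-voom called 0. Per1 was at 1.02, Tsc22d3 at 0.73, Dusp1 at -0.26 and Sgk1 at 0.11, and the groups overlapped for all 6. Mt2 was listed at 0 counts in all 6 livers and had at most 4 counts in a cell library, so nothing was read from it.

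The genes of proteins that bind or take up the members were mixed in the liver, with 9 of 12 tested, a median of -0.16, 2 at an unadjusted p-value under 0.05 and 0 called by edgeR, DESeq2 or limma-voom. Lrp2 (megalin), an uptake receptor for lipocalin 2, was at 0.40 and Scarb1, a receptor for high-density lipoprotein and serum amyloid A, at 0.36. Tlr2 was at -0.73 and Hmox1, which degrades heme, at -0.33. Cd163, the scavenger receptor of hemoglobin-haptoglobin complexes, was at 12.0, 8.19 and 4.66 CPM in the controls and at 8.77, 6.69 and 6.02 with esculetin, and Lrp1, the hemopexin-heme receptor, at 409.5, 488 and 353 against 387, 359 and 375 CPM. Both receptors had overlapping groups.

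**Figure D3:**
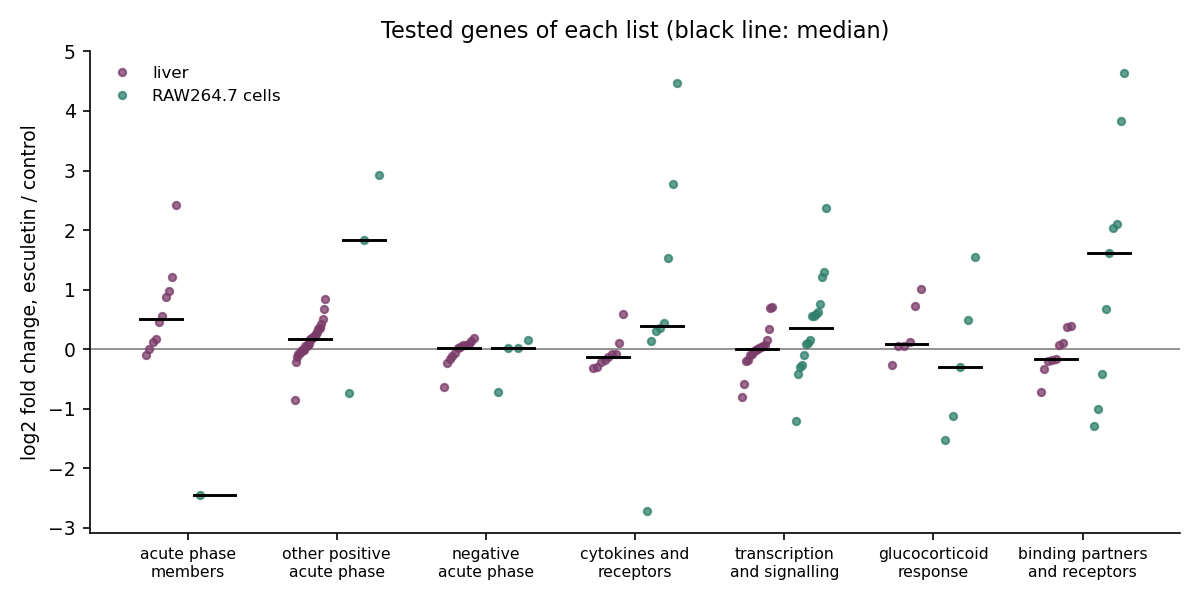
Log2 fold change, esculetin over control, of every tested gene of each list in the liver (purple) and in RAW264.7 cells (green), with the median as a black line. The 10 members have a median of 0.51 in the liver and 1 tested gene, Saa3, at -2.45 in the cells, and the cytokine, signalling and binding partner lists spread more widely in the cells.

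In RAW264.7 cells the members were at or near the limit of detection. The 10 genes summed to 29, 40 and 44 counts in the controls and to 15, 5 and 10 with esculetin. Of these, Saa3 held 22, 34 and 36 counts in the controls and 7, 2 and 4 with esculetin, which left at most 8 counts in any library for the other 9 genes.

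Saa3 was at 1.14, 1.83 and 1.75 CPM in the control cells and at 0.512, 0.136 and 0.223 with esculetin. All esculetin libraries lay below all controls, and 1 of them, replicate 2, was below the level of 3 counts. Saa3 fell by 2.45 on the log2 scale (SE 0.49, edgeR adjusted p-value 0.00129), a mean of 1.57 ± 0.377 against 0.291 ± 0.197 CPM (SD, n = 3), which is 5.42 times lower. It remained called in every alternative fit, with adjusted p-values from 1.04e-05 to 0.00862. Saa3 passed the main filter on low counts through the control libraries alone, the group where it was higher. These p-values therefore describe the difference and are not read as support for it. In these cells 57.7% of the 13277 tested genes were called, 3812 higher and 3855 lower, so a call on its own was not unusual here.

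The effects on Saa3 in the cells and in the liver, where its means were equal, were not tested against each other. Its level per kb was at most 1.52 CPM in a liver library and at most 0.586 in a cell library, values scaled separately in the 2 tables. Summed over 8 macrophage and Kupffer cell markers, the cells were at 1958 to 2179 CPM in the controls and at 4686 to 7220 with esculetin. Of the 5 markers tested, Adgre1, Csf1r and Lyz2 rose, Cd5l fell and Cd68 did not pass the test. Their median log2 fold change was 0.31, so the rise of the sum was not shared by all markers. Their part in the Saa3 value was not tested.

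The other 9 members did not pass the filter in the cells and were not tested there. Saa1 and Saa2 had 0 counts in all 6 libraries, which allows up to 0.220 CPM in a library at 3 counts. Hp had 5, 3 and 3 counts in the controls and 5, 0 and 0 with esculetin, and Lcn2 had 2, 0 and 0 in each group. Orm1, Orm2, Orm3, Hpx and Itih4 had at most 3 counts in any library. Thus a fall or a small rise of these genes was not detectable at this depth. A large rise was not seen, since the 9 genes together held at most 8 counts in any library of either group.

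Other liver-made acute phase genes were likewise scarce in the cells. Of the 30 other positive genes, 15 had 0 counts in all 6 libraries and 25 had at most 3 counts in every library. The 3 tested genes were Il1rn, C3 and Cp, of which the first 2 were called and rose. Il1rn was at 5.86, 5.16 and 5.59 CPM in the controls and at 24.2, 37.0 and 64.2 with esculetin (log2 fold change 2.92, SE 0.30, edgeR adjusted p-value 1.12e-05), and C3, the central complement component, was at 1.503, 0.968 and 1.22 against 5.196, 4.23 and 3.79 CPM (1.83, SE 0.27, edgeR adjusted p-value 0.000158). Cp, which encodes ceruloplasmin, had a log2 fold change of -0.74 and did not pass the test. Of the negative genes, 4 of 12 were tested (Apoa2, Trf, Serpinc1 and Apom), none above 2.27 CPM in any library. EdgeR, DESeq2 and limma-voom called 0 of them, with 0, 0 and 1 at an unadjusted p-value under 0.05. Over all 13277 tested genes in the cells, 8272 were at an unadjusted edgeR p-value under 0.05.

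Among the cytokines themselves, Tnf, Osm and Lif passed the filter in the cells, whereas Il6, Il1a, Il1b, Il11 and Clcf1 did not. Of 15 cytokine and receptor genes 8 were tested, with 6 called higher and 1 lower and a median log2 fold change of 0.40. Tnf rose from 16.1, 16.6 and 16.4 CPM to 94.2, 109.9 and 131 (log2 fold change 2.77, SE 0.12, edgeR adjusted p-value 8.03e-08), and Il1rap, a subunit of the interleukin 1 receptor, rose by 1.52. Lif rose from 3, 3 and 1 counts to 35, 29 and 68, and its fold change, against so few counts, is not given. Lif passed the filter on low counts through the esculetin libraries alone, so its call is not read as support. Lifr fell from 14.6, 13.6 and 13.4 CPM to 4.10, 1.98 and 0.502 (log2 fold change -2.72, SE 0.42, edgeR adjusted p-value 0.000213). Il6 had 0 counts in all 6 cell libraries, and Il1b had at most 4 counts.

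Of 17 transcription and signalling genes 16 were tested in the cells, with 7 called higher and 3 lower and a median log2 fold change of 0.36. Socs3 rose by 2.37 (SE 0.17), Cebpb by 1.29 (SE 0.12), the NF-kB inhibitor Nfkbia by 1.21 (SE 0.09) and the kinase Jak1 by 0.56 (SE 0.09). Rela, Nfkbiz and Cebpd were the other genes that rose, and Stat3, Cebpg and Nfkb2 fell. Cebpb was at 36.1, 39.5 and 39.8 CPM in the controls and at 83.4, 85.3 and 113 with esculetin, without overlap. Of the 24 tested genes of both lists 70.8% were called, against 57.7% of all tested genes. With a fold change over 1.5 also required, 9 of the 24 were called, 37.5% against 36.5% of all tested genes, a share near the background.

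**Figure D4:**
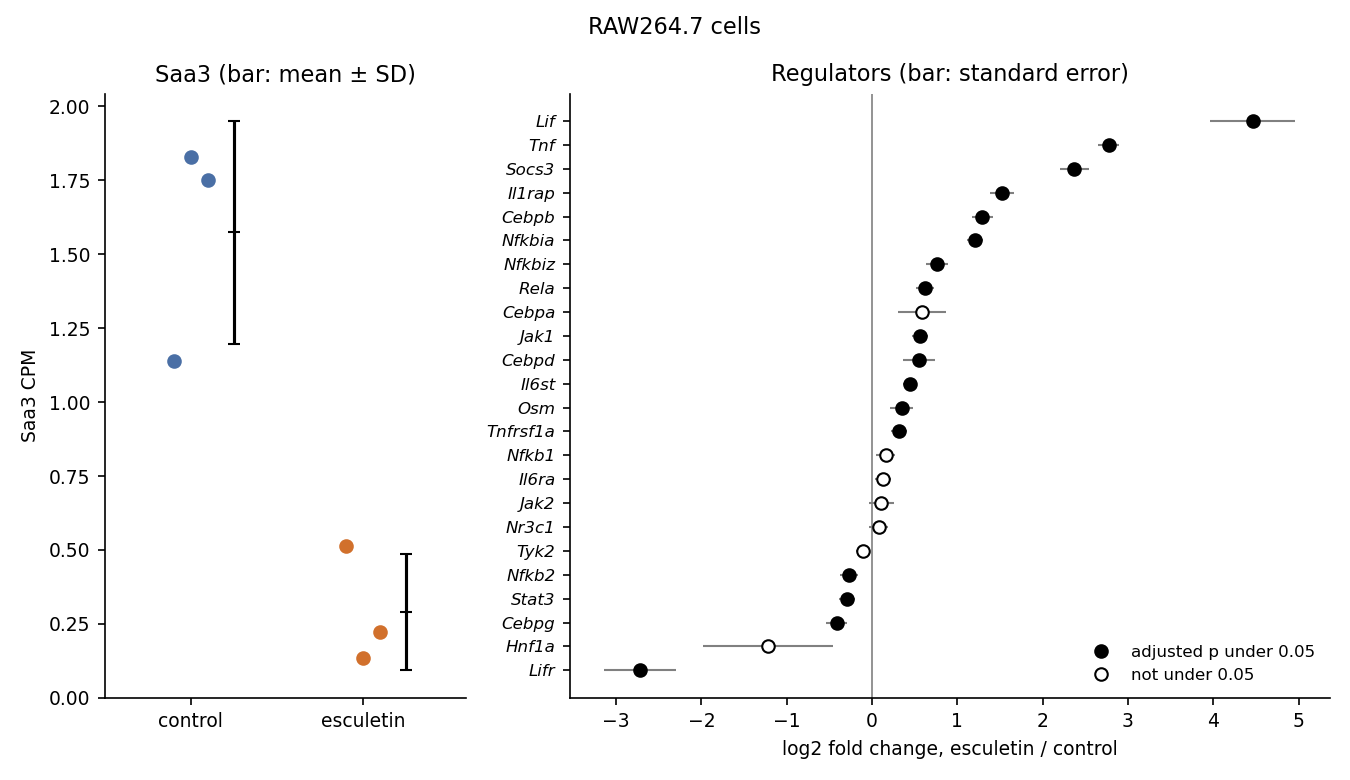
Left, Saa3 in each RAW264.7 library as CPM, with the mean and SD of 3 libraries beside the points. Right, log2 fold change (esculetin over control) with its standard error for the 24 tested cytokine, receptor, transcription and signalling genes, filled where the adjusted p-value was under 0.05. Saa3 lies lower with esculetin, whereas 13 of the 17 called regulators lie above 0. Lif had 1 to 3 counts in the controls, so its position is imprecise.

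Glucocorticoid response genes moved in both directions in the cells. Of 5 tested, all were called, with Tsc22d3 at -1.53, Per1 at -1.13 and Fkbp5 at -0.31 lower and Dusp1 at 1.55 and Sgk1 at 0.49 higher. Binding partners were called in 9 of 9 tested, with 6 higher and 3 lower and a median log2 fold change of 1.62. Beside both lists stands the 57.7% of all tested genes that were called in the cells. Lrp2 and Mmp9 passed the filter on low counts through the esculetin libraries alone, so their calls are not read as support. Hmox1 was at 318, 360.0 and 362 CPM in the controls and at 3582, 4758.5 and 6500.1 with esculetin (log2 fold change 3.84, SE 0.20, edgeR adjusted p-value 1.15e-07). Lrp1, the hemopexin-heme receptor, rose by 0.67, Lrp2 by 2.11, Tlr4 by 1.62 and Msr1, a scavenger receptor, by 2.03.

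The lipocalin 2 receptor Slc22a17 fell by 1.30, Scarb1 by 1.01 and Tlr2 by 0.42 on the log2 scale in the cells. Mmp9, whose protein forms a complex with lipocalin 2, went from 0, 1 and 3 counts to 19, 43 and 24. Cd163, Fpr1 and Fpr2, receptors for haptoglobin complexes and for serum amyloid A, had at most 4 counts in any cell library.

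Genes with the pattern most like that of a member were sought by the root-mean-square difference of centred log2 CPM over the 6 libraries of a table. For Orm3 in the liver these were Ugt2b38 (0.28), Gm31583 (0.29) and Chac1 (0.34), with log2 fold changes of 1.55, 1.396 and 1.56. For Saa3 in the cells they were Evl (0.10), Gm13337 (0.11) and 2010204K13Rik (0.12), with -1.88, -2.24 and -1.58. All of these genes were picked for that likeness, which fixes the direction of their fold changes, so nothing is read from them. Lcn2 was not tested in the cells and had no such list.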

How the data were processed

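RNA was sequenced in 6 liver and 6 RAW264.7 libraries, in groups of 3 taken from the labels. The deposited values are raw counts per gene, in separate tables for liver and cells. Per the study, the authors sequenced 150-base paired ends, aligned them to GRCm39 with HISAT 2.2.1 (the submitters' notes also name a second build, without a role) and counted reads per gene with featureCounts. The handling of multi-mapping reads and of strand was not given in the sources used here.

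Identifiers were matched to GENCODE symbols on GRCm39, and 608 of 55357 did not match. The tables were fitted separately with edgeR 4.0.16 in R 4.3.3 (filterByExpr, TMM, quasi-likelihood test, two-sided p-values adjusted over all tested genes by Benjamini-Hochberg), which tested 12813 genes in the liver and 13277 in the cells. Genes with an adjusted p-value under 0.05 are termed called. SE was derived from the log2 fold change and the F statistic. CPM of low genes carry counting error, and the limit of 3 counts covers counting error only. The fit was tested on simulated data. Promoters were read from GRCm39 and aligned with Biopython 1.88. Likeness of patterns used log2(CPM + 0.5).

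Members and lists were chosen with earlier results of these data known. Named were all members and, per list, up to 4 tested genes, in the cells those with the smallest p-values and in the liver those with the largest fold change at a mean of at least 1 CPM, besides binding partners, genes at 0, cell markers and genes that made up a small count of calls, which were chosen after their values were seen. Alternatives were other scalings and filters, DESeq2 1.42.0, limma-voom (limma 3.58.1), the study's criterion (unadjusted p-value under 0.05 and fold change over 1.5), a replicate block and leaving out each library.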

Additional observations from a re-analysis of the deposited data

Results flagged for a closer look

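For 5 of the 49 genes of the lists tested in both tables, the groups did not overlap in either table and pointed in opposite directions, against 6.06% of the 10449 genes tested in both. Il1rn, the interleukin 1 receptor antagonist, had a log2 fold change of -0.85 in the liver and of 2.92 in the cells. Lifr, the receptor of leukemia inhibitory factor, was at 0.59 in the liver and at -2.72 in the cells. Scarb1, a receptor for high-density lipoprotein, was at 0.36 in the liver and at -1.01 in the cells. The macrophage markers Csf1r and Adgre1 were at -0.28 and -0.31 in the liver and at 0.96 and 0.31 in the cells. None of these genes was called in the liver by edgeR, all 5 were called in the cells, and the difference between liver and cells was not tested. Tlr4, too low to be tested in the liver, was at 1.66, 0.592 and 1.28 CPM in the control livers and at 0.381, 0.455 and 0.453 with esculetin, and had a log2 fold change of 1.62 in the cells.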

How the results depend on the processing

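The count of members called in the liver, 1 of 10 (Orm3), was 0 with scaling by library size only, 5 without a filter on low counts (Orm1, Orm2, Orm3, Saa1 and Lcn2), 3 with DESeq2 (Orm1, Orm2 and Orm3), 4 by the study's criterion (Orm2, Orm3, Saa1 and Lcn2) and 2 with the replicate block (Orm2 and Orm3). Over all tested genes the calls in these settings were 0, 339 (1.52%), 98 (0.765%), 499 (3.89%) and 123 (0.96%), against 11 (0.0859%), so the counts moved over all genes too. Leaving out 1 library gave 0 to 1, with 0 to 31 genes (0% to 0.238%) called over all tested genes. The cause of these moves was not tested. Orm3 had a log2 fold change of 2.69 without control replicate 2. Saa3 remained called in the cells in every alternative, also with the replicate block (1 of 10), and its log2 fold change ran from -3.05 to -2.13. The 17 regulators called in the cells were 9 by the study's criterion (38% of all genes) and 9 with a fold change over 1.5 added (36.5%), as both require that fold, and 12 to 18 when 1 library was left out. With the replicate block they were 17. The 2 other acute phase genes called in the cells were 2 to 3. Same-numbered libraries did not deviate together throughout (correlations of deviations 0.15, -0.0079 and 0.11 in the liver and 0.19, -0.039 and 0.11 in the cells), so the numbers were not taken as pairs. With 3 libraries a group and 7 to 17 counts of Orm3 in the controls, depth limits the low members.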
